A study of Mus musculus with 8 samples.

Results

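The interleukin-1 (IL-1) family was examined in mouse dendritic cells (DCs) through 10 genes, which were found by their gene symbols among the 23356 genes of an RNA-seq table. The set held 3 ligands (*Il1a*, *Il1b* and *Il18*), 2 soluble antagonists (*Il1rn* and *Il18bp*), 4 chains of signalling receptors (*Il1r1*, *Il1rap*, *Il1rl1* and *Il18rap*) and 1 decoy receptor (*Il1r2*). All 10 genes reached 1 FPKM (fragment counts scaled to transcript length and library size) in at least 1 group, as did 11397 genes of the table, and none was lost to this filter.

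The DCs were grown from bone marrow (BMDCs) of mice on a C57BL/6 background (C57BL/6N in the study's methods) with GM-CSF and IL-4. There were 4 groups of 2 libraries each, 8 in all: WT cells without treatment (control), WT cells given ansamitocin-P3 at 100 nM for 5 h, and the same pair of groups from GEF-H1-/- mice. Ansamitocin-P3 belongs to the maytansinoids, which bind tubulin and take microtubules apart. GEF-H1, encoded by *Arhgef2*, is a guanine nucleotide exchange factor for RhoA that is held on microtubules and released when they come apart. The knockout was carried by the whole animal, so every cell type in these cultures lacked the gene. The comparisons ask how ansamitocin-P3 changes the DC transcriptome and how much of that change needs GEF-H1. The cultures were not sorted, floating and loosely attached cells were taken, and the labels do not say whether the 2 libraries of a group came from separate mice or cultures.

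For each gene the authors' table gave 1 FPKM per group that combines both libraries, with a 95% interval from the program Cuffdiff. No value of a single library was analysed here, so no difference below was tested against the spread between replicates, and neither an SD nor a p-value can be given. The interval stands as the error of each value. Differences are log2 ratios of FPKM + 1, which understate the change of weakly expressed genes, and a gene was counted as past 2-fold when this ratio was over 1 or under -1. A second, separate count was of genes whose Cuffdiff intervals in 2 groups did not overlap. Intervals of a difference were computed from the widths of the Cuffdiff intervals, with the groups taken as independent.

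*Arhgef2* itself was at 42.3 FPKM in WT control and 45.9 FPKM in WT treated DCs, against 4.59 and 4.16 FPKM in the GEF-H1-/- groups, so it ran with the genotype labels. The summed FPKM of all genes was 604772, 734144, 594706 and 612810 in WT control, WT treated, GEF-H1-/- control and GEF-H1-/- treated DCs. The depth reached by each library was not determined here, since FPKM keeps no read number and the study's methods give only a target. All 10 of 10 DC markers (among them *Itgax*, *Cd74* and *H2-Ab1*) were at or over 1 FPKM in some group, with a summed level from 4119 to 6405 FPKM. Genes of other cells were also present. The 9 neutrophil markers of the table summed to 32555 and 38466 FPKM in WT control and treated DCs and to 21993 and 22403 FPKM in the GEF-H1-/- groups. The mast cell and basophil markers summed to 208 and 234 FPKM in WT against 403 and 388 FPKM in GEF-H1-/- DCs. Each sum is weighted towards its highest genes, led by *Cd74* for DCs, *S100a8* for neutrophils and *Prss34* for mast cells and basophils. Between control groups 5 of the 9 neutrophil markers were lower and 4 higher in GEF-H1-/- DCs. In bulk RNA of this kind, fewer cells of a type and less RNA per cell cannot be told apart.

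**Figure D1:**
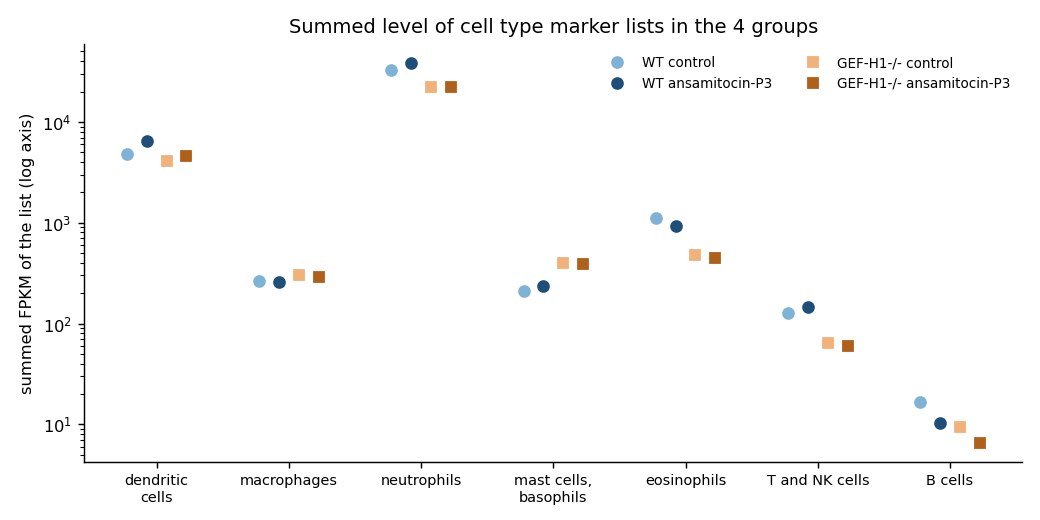
Summed FPKM (log axis) of 7 lists of cell type marker genes in the 4 groups, 1 point per group, without error bars because no replicate values were analysed. A sum is weighted towards the highest genes of its list. Treatment moved the sums less than genotype did for the neutrophil, mast cell and basophil, eosinophil, and T and NK cell lists, where the circles of WT stand apart from the squares of GEF-H1-/- DCs.

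IL-1α and IL-1β are cytokines that start inflammation through the same receptor, a pair of IL-1R1 and the shared chain IL-1RAcP (encoded by *Il1rap*). The receptor signals through MyD88 and IRAK kinases to NF-κB and MAP kinases. The pathway is known for its layers of restraint: IL-1Ra (from *Il1rn*) occupies IL-1R1 without signalling, IL-1R2 captures IL-1 without a signalling domain, and IL-18BP neutralises IL-18. IL-1β and IL-18 are made as precursors that caspase-1 cuts in the inflammasome, so the mRNA level is only the first step towards an active cytokine. In myeloid cells *Il1b* and *Il1rn* are typical genes of innate activation, and ST2 (from *Il1rl1*) receives IL-33.

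The sequence before the start site is shown for the 4 members whose mRNA was past 2-fold higher in treated WT DCs, since these are the genes that moved together. Each is the 250 bases before a RefSeq start site (GRCm38.p6), on the strand of the gene, and the window of *Il1rn* is the one that ends at the start of the gene's locus. Capitals mark matches to 1 of 7 searched motifs.
Il1a: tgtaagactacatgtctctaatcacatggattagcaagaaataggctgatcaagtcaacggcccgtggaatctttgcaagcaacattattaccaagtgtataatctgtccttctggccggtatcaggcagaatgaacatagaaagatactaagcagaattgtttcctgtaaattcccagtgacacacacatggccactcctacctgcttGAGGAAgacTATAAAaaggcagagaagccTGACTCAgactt
Il1b: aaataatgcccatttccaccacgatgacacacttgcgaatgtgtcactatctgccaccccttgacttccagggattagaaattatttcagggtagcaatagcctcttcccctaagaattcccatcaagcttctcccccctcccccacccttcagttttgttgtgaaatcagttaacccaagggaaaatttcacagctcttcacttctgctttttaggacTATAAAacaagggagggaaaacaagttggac
Il1rn: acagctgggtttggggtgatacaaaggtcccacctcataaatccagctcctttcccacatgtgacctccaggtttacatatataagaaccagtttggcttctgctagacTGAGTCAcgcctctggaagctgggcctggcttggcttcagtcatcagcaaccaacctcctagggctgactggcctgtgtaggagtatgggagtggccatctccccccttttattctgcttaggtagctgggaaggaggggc
Il1r2: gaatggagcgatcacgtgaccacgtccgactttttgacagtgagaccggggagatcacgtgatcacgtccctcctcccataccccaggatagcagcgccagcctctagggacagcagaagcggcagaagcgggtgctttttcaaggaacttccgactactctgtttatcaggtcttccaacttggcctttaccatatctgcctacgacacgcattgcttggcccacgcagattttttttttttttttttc
The window of *Il1a* was chr2:129309973-129310222 on the minus strand, that of *Il1b* chr2:129371140-129371389 on the minus strand, that of *Il1rn* chr2:24336610-24336859 on the plus strand and that of *Il1r2* chr1:40085843-40086092 on the plus strand. RefSeq windows were at hand for 10 of the 10 members, 14 windows in all, because some genes have several starts. Both strands were searched in the 250 bases before and the 50 after each start for AP-1 (TGANTCA), CRE (TGACGTCA), C/EBP (TTGCNNAA), PU.1 (GAGGAA), the TATA box (TATAAA) and, by name, for the NF-κB and SRF (CArG) motifs. Positions are counted from the start site, with negative ones before it. *Il1a* had a PU.1 match from -41 to -36, a TATA match from -32 to -27 and an AP-1 match from -12 to -6. *Il1b* had a TATA match from -31 to -26 and no other. *Il1rn* had an AP-1 match from -141 to -135 in the window shown. Of its other 2 windows, 1 held only the TATA letters, from 15 to 20, and 1 had no match. *Il1r2* had no match to any of the 7, in the window of a start that lies inside its locus. Of all 32851 windows of that length, 13.6% held the TATA letters, 7.81% AP-1, 28.3% PU.1, 10.8% C/EBP, 4.51% NF-κB, 1.79% CRE and 1.63% the CArG letters. The 4 genes thus shared no single motif in these windows, and a match or its absence says nothing about the binding of a factor.

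A subset of the family was higher in WT DCs after ansamitocin-P3. In treated against control WT DCs, 4 of the 10 members were past 2-fold higher (*Il1a*, *Il1b*, *Il1rn* and *Il1r2*) and 0 were past 2-fold lower, against 3.66% of the 11397 genes higher and 1.28% lower. Intervals were apart for 7 members, all higher, which adds *Il1rap*, *Il1rl1* and *Il18rap*. Over all genes 9.19% were higher and 7.58% lower by that count. The median log2 difference was 0.74 over the members and 0.001 over all genes.

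**Figure D2:**
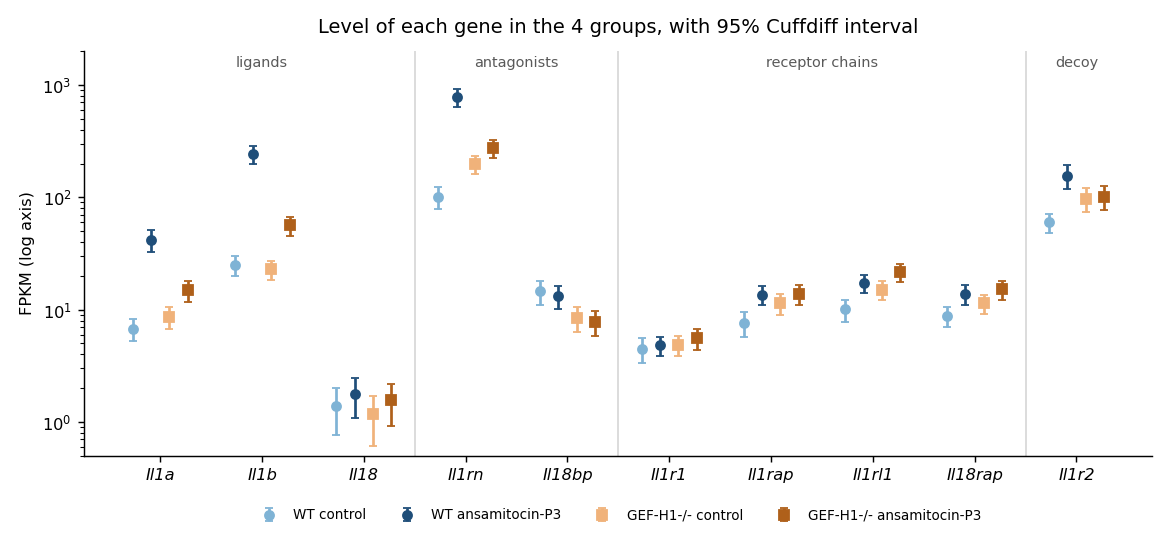
FPKM (log axis) of the 10 genes in each of the 4 groups, grouped by role. Points are the pooled group values and bars the 95% Cuffdiff intervals. *Il1a*, *Il1b*, *Il1rn* and *Il1r2* have their highest value in WT treated DCs, while *Il1r1* and *Il18* lie within overlapping intervals in all 4 groups.

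*Il1b* had the largest drug difference among the members in each genotype. It was at 25.2 FPKM (interval 20.1 to 30.3) in WT control and 242 FPKM (198 to 286) in WT treated DCs, and at 22.8 FPKM (18.3 to 27.4) and 56.2 FPKM (45.7 to 66.7) in GEF-H1-/- control and treated DCs. The control groups overlapped, and all the treated values lay above both of them. This was 9.60-fold by FPKM in WT, a log2 difference of 3.21 (2.83 to 3.60), and 2.46-fold in GEF-H1-/- DCs, a log2 difference of 1.26 (0.88 to 1.64). Ranked by level among all genes of the table, *Il1b* stood at the 85.6 percentile in WT control and at 98.2 in WT treated DCs, and the ranks were 84.3 and 93.4 without GEF-H1. The locus of *Il1b* in the table (chromosome 2, 129364580 to 129375733) runs beyond the annotated gene (129364570 to 129371139, minus strand) over the opposite-strand transcript *Il1bos*. Whether reads were counted by strand is not given in the sources used here, so reads from that pair cannot be told apart.

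*Il1a*, which encodes a ligand that is active without caspase-1, followed at a lower level. It was at 6.75 FPKM (5.26 to 8.24) in WT control and 42.1 FPKM (32.8 to 51.5) in WT treated DCs. In GEF-H1-/- DCs it was at 8.63 FPKM (6.70 to 10.5) without and 14.98 FPKM (11.8 to 18.2) with the drug. The intervals of treated and control cells were apart in both genotypes, with log2 differences of 2.48 (2.06 to 2.89) in WT and 0.73 (0.33 to 1.14) in GEF-H1-/- DCs. *Il1a* (chromosome 2, 129297370 to 129309972, minus strand) overlaps *Gm14023* on the opposite strand, which reached 0.438 FPKM at most.

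*Il18*, a ligand that drives interferon-γ production, was the lowest member in every group. It was at 1.40 FPKM (0.77 to 1.995) in WT control, 1.78 FPKM (1.07 to 2.46) in WT treated, 1.17 FPKM (0.61 to 1.69) in GEF-H1-/- control and 1.58 FPKM (0.92 to 2.2) in GEF-H1-/- treated DCs. All these intervals overlapped, and the log2 differences with the drug were 0.21 (-0.30 to 0.73) and 0.25 (-0.25 to 0.76). A change of *Il18* was not detectable at this precision.

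*Il1rn*, the antagonist of IL-1α and IL-1β, was the highest member in all 4 groups. It was at 101 FPKM (78.7 to 124) in WT control and 778 FPKM (632 to 924) in WT treated DCs, a 7.70-fold difference by FPKM. In GEF-H1-/- DCs the control level was already 197 FPKM (161 to 234) and the treated level 274 FPKM (223 to 324). Treated and control intervals were far apart in WT but overlapped in GEF-H1-/- DCs, with log2 differences of 2.93 (2.52 to 3.35) and 0.47 (0.09 to 0.84). The gene thus stood at the 96.5 percentile of all genes in WT control and at the 99.4 percentile in WT treated DCs. It lies on chromosome 2 from 24336860 to 24351491, and RefSeq gives it 3 starts, which the table does not separate.

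*Il18bp*, the antagonist of IL-18, did not follow *Il1rn*. It was at 14.5 FPKM (11.1 to 17.9) and 13.3 FPKM (10.2 to 16.4) in WT control and treated DCs, and at 8.40 FPKM (6.32 to 10.5) and 7.77 FPKM (5.81 to 9.67) in the GEF-H1-/- groups. The drug differences were -0.12 and -0.10 on the log2 scale, with overlapping intervals. Both GEF-H1-/- values lay below both WT values, and at each condition the intervals of the genotypes were apart, by -0.72 (-1.18 to -0.27) in control and -0.71 (-1.15 to -0.26) in treated DCs. With the groups rescaled to the same sum of FPKM, the treated groups overlapped, at -0.47. The gene (chromosome 7, 102015077 to 102018155, minus strand) overlaps *Numa1* on the other strand, which was at 19.2 to 21.5 FPKM in the 4 groups.

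*Il1r2*, the decoy receptor, was the most abundant receptor. It was at 59.9 FPKM (48.1 to 71.5) in WT control and 156 FPKM (120 to 195) in WT treated DCs, and at 96.6 FPKM (73.8 to 121) and 102 FPKM (77.6 to 126) in GEF-H1-/- control and treated DCs. The WT values were apart, and the GEF-H1-/- values were nearly equal and lay between them. On the log2 scale the drug difference was 1.37 (0.93 to 1.81) for WT cells and 0.07 (-0.42 to 0.56) for GEF-H1-/- cells.

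The signalling receptor chains were lower than *Il1r2* in all 4 groups. Their log2 differences with the drug were below that of *Il1r2* in WT, where only the interval of *Il1r1* was apart from its interval. In GEF-H1-/- DCs they were above it, but all their intervals overlapped that of *Il1r2*. *Il1r1*, the receptor of IL-1 itself, was at 4.47, 4.80, 4.86 and 5.55 FPKM in WT control, WT treated, GEF-H1-/- control and GEF-H1-/- treated DCs, and all 4 intervals overlapped. *Il1rap*, the shared partner chain, was at 7.62, 13.6, 11.4 and 13.7 FPKM in the same order, lowest in WT control. Its log2 difference with the drug was 0.76 (0.35 to 1.17) in WT and 0.25 (-0.13 to 0.63) in GEF-H1-/- DCs. Its Cuffdiff intervals in the control groups overlapped, at a difference of 0.52 (0.10 to 0.94) for GEF-H1-/- against WT. *Il1rl1*, the receptor of IL-33, was at 10.1 FPKM (7.83 to 12.3), 17.3 FPKM (14.1 to 20.5), 15.1 FPKM (12.3 to 17.8) and 21.5 FPKM (17.6 to 25.4). It was highest in treated cells of each genotype, with log2 differences of 0.73 (0.34 to 1.11) and 0.49 (0.13 to 0.84). *Il18rap*, the accessory chain of the IL-18 receptor, was at 8.80, 13.8, 11.4 and 15.2 FPKM, with differences of 0.60 (0.22 to 0.97) and 0.38 (0.01 to 0.76). None of the 4 chains was past 2-fold in any comparison. Under the same rescaling, the WT intervals of *Il1rap*, *Il1rl1* and *Il18rap* overlapped and the WT difference of *Il1r1* turned from 0.08 to -0.14. It also set *Il1rl1* apart between the treated groups, higher in GEF-H1-/- DCs.

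**Figure D3:**
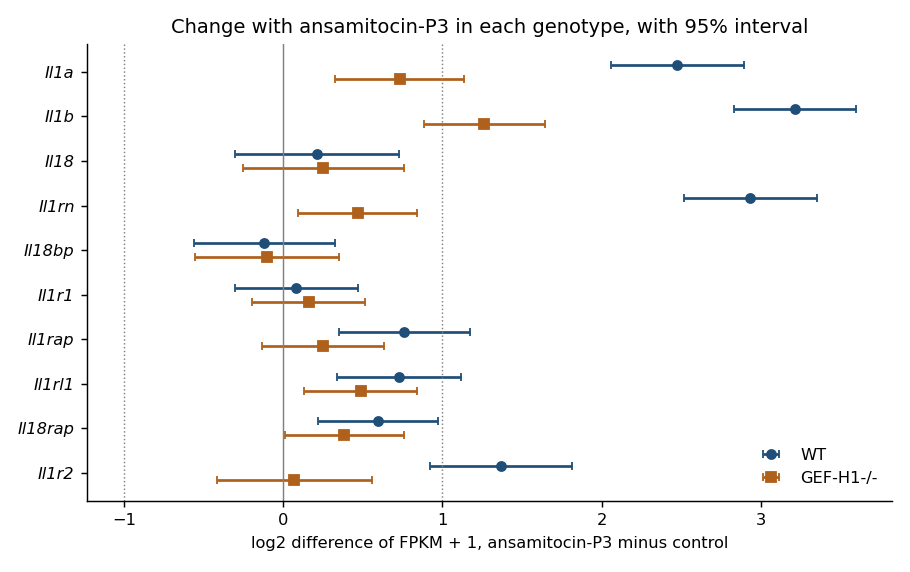
Log2 difference of FPKM + 1 between treated and control DCs for each gene, in WT (circles) and GEF-H1-/- (squares), with the 95% interval computed from the Cuffdiff intervals. Dotted lines mark 2-fold. The intervals of the genotypes are apart for *Il1a*, *Il1b*, *Il1rn* and *Il1r2*, and overlap for the other 6 genes.

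In GEF-H1-/- DCs the drug moved fewer members past either limit. Only *Il1b* was past 2-fold higher and 0 were lower, against 0.807% and 0.272% of all genes. The Cuffdiff intervals of *Il1a* and *Il1b* alone were apart, both higher, against 2.75% higher and 0.956% lower over all genes. Separate intervals are the stricter limit, since the interval of the difference also left out 0 for *Il1rn*, *Il1rl1* and *Il18rap*. How many of all genes pass that looser limit here was not counted. The median log2 difference of the members was 0.32, against -0.01 over all genes. The sign of the difference was positive for 9 of 10 members in each genotype, *Il18bp* being the exception, though *Il1r1* turned negative in WT under the rescaling above. Of all 11397 genes, 5710 were positive in WT and 5420 in GEF-H1-/- DCs. Among the positive members, the interval held 0 for *Il18* and *Il1r1* in both genotypes and for *Il1rap* and *Il1r2* in GEF-H1-/- DCs.

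The genotypes differed in the size of the drug's effect on 4 members. The WT difference exceeded the GEF-H1-/- difference by 2.46 (1.90 to 3.02) for *Il1rn*, 1.95 (1.41 to 2.49) for *Il1b*, 1.74 (1.16 to 2.33) for *Il1a* and 1.30 (0.64 to 1.96) for *Il1r2*, all on the log2 scale. These 4 were past 2-fold and had intervals of the difference that left out 0, and 0 members were past it in the other direction. Over all genes 1.36% were past 2-fold this way and 0.535% the other way, and the interval left out 0 for 4.77% and 3.52%. The intervals for the other 6 members all held 0, so that no difference between genotypes was detectable for them. The share of the WT log2 difference that was seen in GEF-H1-/- DCs varied among the 4 genes. It was 0.393 for *Il1b*, 0.295 for *Il1a*, 0.160 for *Il1rn* and 0.052 for *Il1r2*. The 2 lowest shares were those of the genes whose GEF-H1-/- control interval lay above that of WT control. At a given treated level a higher GEF-H1-/- control gives a smaller share, but its part in these shares was not tested. Between treated groups the order was another one, with *Il1b* 4.31-fold, *Il1rn* 2.84-fold, *Il1a* 2.81-fold and *Il1r2* 1.54-fold lower in GEF-H1-/- DCs. These shares carry the errors of 4 values each, and their order was not tested.

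Some members also had separate intervals between the control groups. Of the members, 0 were past 2-fold in GEF-H1-/- against WT control DCs (1.26% of all genes were higher and 0.614% lower). Intervals were apart for *Il1rn* and *Il1r2*, which were higher, and for *Il18bp*, which was lower, against 2.86% higher and 1.88% lower over all genes. *Il1rl1* joined them, higher, when the groups were rescaled to the median ratio over genes or to a common sum of FPKM, which makes 4 members. By the interval of the difference, the looser limit, 0 was also left out for *Il1rap*, at 0.52 (0.10 to 0.94). The same held for *Il1rl1*, at 0.54 (0.15 to 0.92), and the number of all genes past this limit was not counted. *Il1rn* was 1.95-fold higher in GEF-H1-/- control DCs by FPKM, a log2 difference of 0.96 (0.55 to 1.37), and *Il1r2* 1.61-fold, a difference of 0.68 (0.24 to 1.13). The intervals of the 3 ligands overlapped between the control groups, with differences of -0.14 (-0.53 to 0.25) for *Il1b*, 0.31 (-0.09 to 0.71) for *Il1a* and -0.14 (-0.66 to 0.37) for *Il18*. The comparison between genotypes in the drug's effect uses these same control values. At a given treated level a higher GEF-H1-/- control gives a smaller GEF-H1-/- difference, but its part here was not tested.

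Treated cells were therefore also compared directly. In treated GEF-H1-/- against treated WT DCs, 3 members were past 2-fold lower (*Il1a*, *Il1b* and *Il1rn*) and 0 higher, against 2.06% lower and 2% higher over all genes. Intervals were apart for 4 members, all lower, which adds *Il18bp*, against 6.73% lower and 7.02% higher. *Il1b* was 4.31-fold lower by FPKM, a log2 difference of -2.09 (-2.46 to -1.72). *Il1rn* was lower by 2.84-fold, at -1.505 (-1.88 to -1.13), and *Il1a* by 2.81-fold, at -1.43 (-1.86 to -1.01). The Cuffdiff intervals of *Il1r2* overlapped here, at a difference of -0.62 (-1.10 to -0.13), while *Il1rl1* was at 0.30 (-0.06 to 0.66). Compared with WT control, treated GEF-H1-/- DCs held 2.71-fold more *Il1rn*, 2.23-fold more *Il1b* and 2.22-fold more *Il1a* by FPKM.

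Marker genes of other cells differed with genotype and with the drug in the same libraries. Of the 9 neutrophil markers, *Ngp*, *Camp* and *Ltf* were past 2-fold lower and *Mpo*, *Elane* and *Csf3r* past 2-fold higher in GEF-H1-/- control DCs, while 0 of the 9 were past 2-fold with the drug in either genotype. *Camp*, a granule protein gene, was at 189 FPKM in WT control and 14.98 FPKM in GEF-H1-/- control DCs, *Ngp* at 1707 and 702 FPKM and *Ltf* at 399 and 145 FPKM. *Mpo* was at 26.4 and 63.1 FPKM, *Elane* at 20.7 and 45.9 FPKM with overlapping intervals, and *Csf3r* at 11.3 and 30.7 FPKM. All 9 tested mast cell and basophil markers were higher in GEF-H1-/- control DCs, 3 of them past 2-fold, and *Fcer1a*, a chain of the IgE receptor, was at 6.25 FPKM in WT against 33.5 FPKM in GEF-H1-/- control. The others past 2-fold were *Prss34*, at 82.0 and 171 FPKM, and *Il4*, at 1.28 and 4.49 FPKM. On the eosinophil list *Epx* (118 and 37.4 FPKM) and *Prg2* (984 and 411 FPKM) were past 2-fold lower and *Ccr3* (0.75 and 2.86 FPKM) higher in GEF-H1-/- control DCs, and of the T and NK cell list *Gzma* was lower (84.4 and 32.4 FPKM). Among all tested genes, 1.26% were past 2-fold higher and 0.614% lower in GEF-H1-/- against WT control DCs. No marker on these lists was at 0 in all groups, and *Mcpt4* of the mast cell list stayed under 1 FPKM. Neutrophils are a known source of *Il1rn* and *Il1r2*, and mast cells and basophils of *Il1rl1* and the IL-18 receptor chains. The part of such cells in the genotype differences of these genes was not tested. With the drug, 1 mast cell and basophil marker was past 2-fold in WT, *Hdc* at 8.70 and 29.2 FPKM, and the list's median log2 difference was 0.03. Of the DC markers *Ccr7*, a chemokine receptor gene of maturing DCs, was past 2-fold higher with the drug in WT, at 258 and 602 FPKM, and 3 of the 10 had separate, lower intervals. Of the 7 tested macrophage markers *C5ar1* was past 2-fold higher, at 33.1 and 83.9 FPKM, and *Mertk* past 2-fold lower, at 5.46 and 0.78 FPKM, and 2 had separate, lower intervals. Among all tested genes, 3.66% were past 2-fold higher and 1.28% lower with the drug in WT, and 9.19% and 7.58% had separate intervals. In GEF-H1-/- DCs 0.807% of all genes were past 2-fold higher and 0.272% lower. Without GEF-H1, *Ccr7* was at 234 and 405 FPKM, *C5ar1* at 21.5 and 35.5 FPKM and *Mertk* at 4.56 and 2.53 FPKM. The part of these shifts in the members' drug differences was not tested.

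The order of the genes by level differed between groups. *Il1rn* was first and *Il18* last throughout, and *Il1r2* was at rank 2 and *Il1b* at rank 3 in WT control and both GEF-H1-/- groups. In WT treated DCs *Il1b* stood at rank 2, with its interval apart from that of *Il1r2*, and *Il1a* moved from rank 8 in WT control to rank 4. From rank 4 to rank 9 in WT control (*Il18bp*, *Il1rl1*, *Il18rap*, *Il1rap*, *Il1a* and *Il1r1*) each gene overlapped the next, though *Il18bp* was apart from *Il18rap* and the genes after it. *Il18bp* stood at rank 8 in WT treated DCs and in both GEF-H1-/- groups. In the GEF-H1-/- groups *Il1rl1* took rank 4, with an interval apart from that of *Il18bp*.

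Ratios of FPKM put the restraining genes beside those that they restrain. The range in brackets runs from the lowest to the highest ratio that the Cuffdiff intervals of both genes allow. It is wider than an interval of the ratio would be, so overlap of ranges does not show that ratios are equal. *Il1rn* exceeded *Il1b* 4.004-fold (2.59 to 6.14) in WT control, 3.21-fold (2.21 to 4.67) in WT treated, 8.64-fold (5.88 to 12.8) in GEF-H1-/- control and 4.87-fold (3.35 to 7.07) in GEF-H1-/- treated DCs. The antagonist's mRNA was thus above that of the ligand in every group. The ranges of this ratio overlapped with and without the drug in each genotype, and between genotypes at each condition. For GEF-H1-/- against WT control DCs, the log2 difference was 0.96 (0.55 to 1.37) for *Il1rn* and -0.14 (-0.53 to 0.25) for *Il1b*. With the drug in GEF-H1-/- DCs it was 0.47 (0.09 to 0.84) and 1.26 (0.88 to 1.64). By these separate intervals the ratio was higher in GEF-H1-/- control than in WT control or GEF-H1-/- treated DCs. With the drug in WT and between treated groups, the intervals of both genes overlapped. *Il1rn* over *Il1a* was 14.96, 18.5, 22.9 and 18.3 in WT control, WT treated, GEF-H1-/- control and GEF-H1-/- treated DCs. Against the sum of both ligands, *Il1rn* was at 3.16 (2.04 to 4.87), 2.74 (1.87 to 4.01), 6.27 (4.24 to 9.35) and 3.84 (2.63 to 5.62). In WT the decoy *Il1r2* exceeded *Il1r1* 13.4-fold (8.55 to 21.6) without and 32.6-fold (20.8 to 50.9) with the drug. These ranges just overlapped, but the log2 drug differences of the genes, 1.37 (0.93 to 1.81) and 0.08 (-0.30 to 0.47), had separate intervals. In the GEF-H1-/- groups *Il1r2* exceeded *Il1r1* 19.9-fold and 18.3-fold. *Il18bp* exceeded *Il18* in all groups, 10.4-fold, 7.48-fold, 7.18-fold and 4.91-fold, with wide ranges that overlapped. These are ratios of mRNA per length, not of protein.

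**Figure D4:**
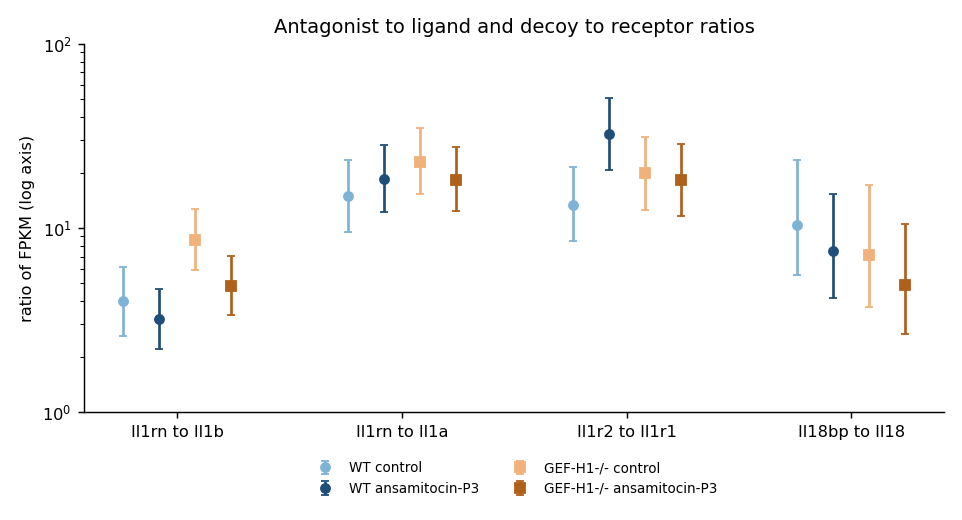
Ratios of FPKM (log axis) between a restraining gene and its ligand or signalling receptor, in the 4 groups. Bars run from the lowest to the highest ratio that the Cuffdiff intervals of both genes allow. *Il1rn* to *Il1b* is highest in GEF-H1-/- control DCs (8.64), and *Il1r2* to *Il1r1* in WT treated DCs (32.6).

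Other genes of the family were few. Of 6 further ligands, only *Il1f9*, which encodes IL-36γ, passed the filter. It was at 8.90, 35.01, 14.1 and 20.1 FPKM in WT control, WT treated, GEF-H1-/- control and GEF-H1-/- treated DCs. Its log2 difference with the drug was 1.86 (1.42 to 2.30) in WT, past 2-fold, and 0.48 (0.04 to 0.93) in GEF-H1-/- DCs. *Il33*, the ligand of ST2, stayed under the filter, at 0.21, 0.68, 0.44 and 0.78 FPKM, and *Il1f5*, *Il1f8* and *Il1f10* were listed at 0. Of 5 further receptor genes, 3 were tested and 0 were past 2-fold in any comparison. *Il18r1*, the ligand-binding chain for IL-18, was at 2.25 and 2.69 FPKM in WT and 4.60 and 5.11 FPKM in GEF-H1-/- DCs, so its intervals were apart between the control groups. *Il1rl2*, the receptor of IL-36, was at 32.7, 23.3, 29.6 and 30.3 FPKM, and *Sigirr*, an inhibitory receptor, at 8.29, 6.96, 6.28 and 5.28 FPKM.

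The signalling genes behind the receptor stayed within 2-fold, as did most genes of the table. Of 16 genes from *Myd88* to the IKK complex, 0 were past 2-fold in either genotype with the drug. Over all genes 3.66% were higher and 1.28% lower in WT, and 0.807% and 0.272% in GEF-H1-/- DCs. In WT 3 had intervals that were apart, all higher, where 9.19% of all genes did: the kinase gene *Irak2* (15.7 and 26.1 FPKM), *Tollip*, an adaptor that restrains IRAK signalling (26.5 and 45.5 FPKM), and the ubiquitin ligase gene *Peli2* (6.12 and 11.2 FPKM). In GEF-H1-/- DCs 0 of the 16 were apart, against 2.75% higher and 0.956% lower over all genes, with *Irak2* at 13.3 and 13.9 FPKM. *Myd88*, the adaptor, was at 68.6, 68.0, 63.0 and 55.3 FPKM in the 4 groups. As a list, the 16 genes had a median log2 difference of 0.23 (WT) and 0.10 (GEF-H1-/-).

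Genes for processing of the cytokines moved in opposite directions in WT DCs. Of 9 genes, *Capn2*, a calpain chain of the type that cuts the IL-1α precursor, was past 2-fold higher, at 25.5 and 65.7 FPKM, a log2 difference of 1.33 (0.96 to 1.70). *Pycard*, the inflammasome adaptor ASC, was past 2-fold lower, at 100 FPKM in control and 46.8 FPKM in treated WT DCs, a difference of -1.08 (-1.49 to -0.68). The inflammasome sensor gene *Nlrp3* was at 16.5 and 28.4 FPKM, with intervals apart but not past 2-fold. Over all genes 3.66% were past 2-fold higher and 1.28% lower in this comparison. *Casp1*, which encodes the enzyme that cuts IL-1β and IL-18, was at 29.4 and 23.7 FPKM with overlapping intervals. In GEF-H1-/- DCs 0 of the 9 were past 2-fold or apart, with *Capn2* at 37.8 and 51.0 FPKM and *Pycard* at 111 and 86.2 FPKM. Over all genes 0.807% were past 2-fold higher and 0.272% lower without GEF-H1, and 2.75% and 0.956% were apart.

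Of 10 genes known to respond to IL-1, and to NF-κB signals in general, 8 were tested. In WT 3 were past 2-fold higher, against 3.66% of all genes. *Cxcl2*, a neutrophil chemokine gene, was at 3.68 FPKM in control and 63.4 FPKM in treated WT DCs, and *Il6* at 11.4 and 77.8 FPKM. *Ptgs2*, the inducible cyclooxygenase gene, was at 0.31 and 3.93 FPKM. In GEF-H1-/- DCs 2 were past 2-fold higher, against 0.807% of all genes. These were *Cxcl2* at 5.36 and 17.0 FPKM and *Il6* at 13.0 and 41.0 FPKM. Intervals were apart for 5 of the 8 in WT and 3 in GEF-H1-/- DCs, all higher, against 9.19% and 2.75% of all genes, and the medians were 0.81 and 0.35 on the log2 scale.

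**Figure D5:**
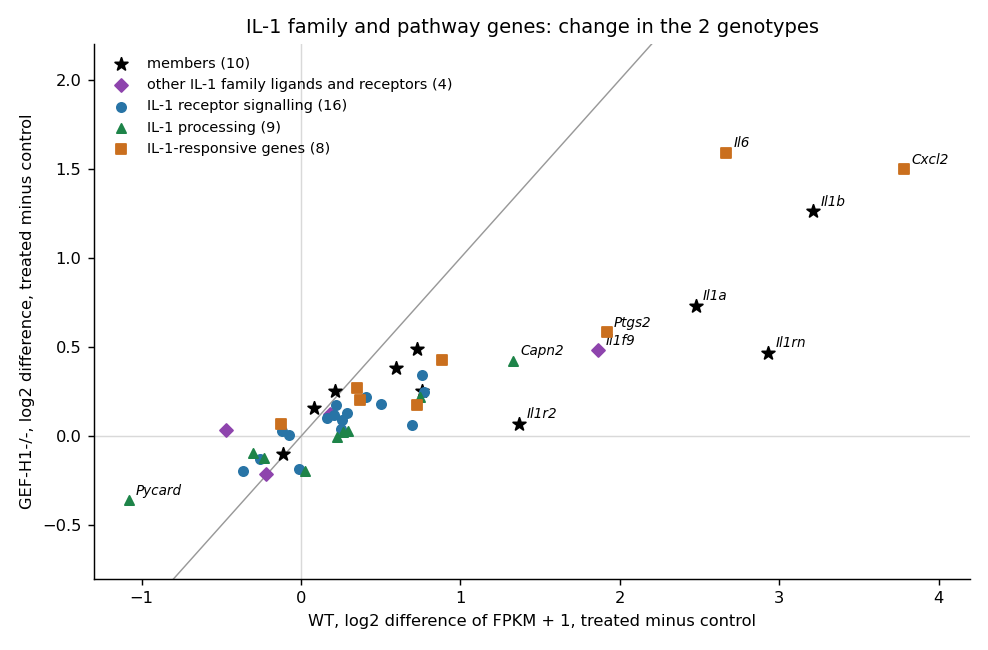
Log2 difference of FPKM + 1 with ansamitocin-P3 in WT (x axis) against GEF-H1-/- DCs (y axis) for the members, other family genes, IL-1 receptor signalling, IL-1 processing and IL-1-responsive genes that passed the filter. The line marks equal differences. *Il1a*, *Il1b*, *Il1rn* and *Il1r2* lie to the right of it, together with *Il6*, *Cxcl2*, *Ptgs2*, *Il1f9* and *Capn2*.

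The receptor genes lie together on chromosome 1. Between 40076212 and 40549297, a span of 0.473 Mb, the table had 7 genes, of which 6 were tested, in the order *Il1r2*, *Il1r1*, *Il1rl2*, *Il1rl1*, *Il18r1* and *Il18rap*. Of these, 1 was past 2-fold higher with the drug in WT, where 3.66% of all genes were. This was *Il1r2* at the end of the cluster, while its neighbour *Il1r1* (40225080 to 40316177) was at 4.47 and 4.80 FPKM. The antisense gene *Gm16894* at the locus of *Il1r2* was at 0.426 FPKM at most. *Il1rap* (chromosome 16, 26581705 to 26725147), *Il18* (chromosome 9, 50565368 to 50581837) and *Il18bp* on chromosome 7 lie apart from the others. *Il1rn*, *Il1a* and *Il1b* share chromosome 2, but over 105 Mb with 521 tested genes, of which 18 were past 2-fold higher and 8 lower with the drug in WT, or 3.45% higher.

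Genes with the most similar pattern were sought for the members over the 4 groups, as the distance between centred log2 values among 8816 genes with at least 5 FPKM in some group, small RNA genes left out. The 4 group values share their libraries across genes, so this is a description of likeness and nothing more. *Il1b* was nearest to *Osm*, the gene for the cytokine oncostatin M, which was at 16.9, 217, 15.7 and 49.9 FPKM in WT control, WT treated, GEF-H1-/- control and GEF-H1-/- treated DCs (distance 0.37). *Il1rn* was nearest to *Clec4d*, a C-type lectin receptor gene, at 7.72, 79.5, 17.6 and 23.9 FPKM (distance 0.20). *Il1a* was nearest to *Smox*, the spermine oxidase gene, at 6.17, 38.5, 7.11 and 13.1 FPKM (distance 0.11). *Il1r2* was nearest to *Acvrl1*, a receptor gene of the TGF-β family, at 7.37, 20.5, 12.2 and 14.1 FPKM (distance 0.096). *Clec4e*, which encodes the lectin Mincle, was among the 3 nearest genes of both *Il1a* and *Il1rn*, at 4.49, 36.9, 6.68 and 11.5 FPKM. *Il1rl1* was nearest to *Mfge8*, at 43.3, 77.1, 70.4 and 95.6 FPKM (distance 0.11), followed by *Il7r* and *Speg*. The other genes among the 3 nearest were *Pxdc1* for *Il1a*, *Sdcbp2* and *Plaur* for *Il1b*, *Csf1* for *Il1rn*, and *Cd300lb* and *A530064D06Rik* for *Il1r2*.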

How the data were processed

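RNA-seq was performed on WT and GEF-H1-/- BMDCs, control or treated with ansamitocin-P3. The authors prepared stranded mRNA libraries and deposited FPKM from Cuffdiff (version 1.05 per the labels, build mm10), with both libraries of a group combined, a 95% interval and a status per value. The aligner, the annotation and the strand setting of that run are not given in the sources used here. The columns of WT cells name no genotype and were assigned by elimination; 0 columns of per-sample values were left unused. Table starts were moved by 1 base to count from 1.

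Genes with a status other than OK (107 of 23356) were left out, and 11397 genes reached 1 FPKM in some group and were kept. The log2 ratio of FPKM + 1 was computed between groups with Python 3.11.15, numpy 2.4.6 and pandas 2.3.3. The planned branch for separate libraries (limma) could not be run on pooled values, so no test was made, and precision rests on the Cuffdiff intervals, whose depth is unknown. The computation was tested on simulated data. Members and the gene lists were chosen with earlier results of these data known, and support no inference. Named genes were the members, list genes past 2-fold with the drug or between control groups, genes between the outermost members on chromosome 1, and the 3 nearest genes by pattern of 5 members. *Itgax*, *Cd74*, *H2-Ab1*, *S100a8*, *Mcpt4*, *Irak2*, *Tollip*, *Peli2*, *Myd88*, *Nlrp3*, *Casp1*, *Il33*, *Sigirr* and the genes listed at 0 fall outside that rule and were named after their values were seen. Promoters came from RefSeq (GRCm38.p6) and gene overlaps from GENCODE M21. Alternatives were pseudocounts of 0.1 and 5 FPKM, no filter or 5 FPKM, and 3 rescalings of the groups.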

Additional observations from a re-analysis of the deposited data

How the results depend on the processing

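Leaving out a replicate could not be done, since each value pools the 2 libraries of a group. No paired analysis was possible because the columns carry no replicate values. The counts of members past 2-fold equalled the reported ones under every alternative tried (pseudocounts of 0.1 and 5 FPKM, no filter or 5 FPKM, 3 rescalings, and, for all but the difference between genotypes, separate intervals as a further condition). With the groups rescaled to a common sum of FPKM, 4 members had separate intervals with ansamitocin-P3 in WT in place of 7 (*Il1a*, *Il1b*, *Il1rn* and *Il1r2*). Between control groups 4 members in place of 3 had separate intervals under the median-ratio and the common-sum rescaling, which adds *Il1rl1*. The common-sum rescaling shifted the genes' log2 differences by a median of -0.257 for the drug in WT and of 0.239 for GEF-H1-/- against WT treated DCs. The share of genes past 2-fold that were higher went from 74.1% to 38.9% and from 49.2% to 76.9% in these comparisons. For the difference between genotypes it went from 71.8% to 45.4%. By separate intervals the share that was higher went from 54.8% to 22.0% with the drug in WT, and from 51.1% to 82.1% between treated groups. Of 250 values of single members under these alternatives, 231 moved by less than 1 standard error from the Cuffdiff intervals and 19 by more, 18 of them under the common sum. A pseudocount of 0.1 FPKM raised the number of all genes past 2-fold from 563 to 956 with the drug in WT, from 123 to 212 in GEF-H1-/- DCs, from 214 to 372 between control groups, from 463 to 801 between treated groups and from 216 to 387 for the difference, and 5 FPKM lowered them to 318, 77, 101, 206 and 123.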
